A study of Mus musculus with 36 samples.

Results

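The genes described here are 8 chemokines and the ligands of the colony stimulating factor 1 receptor: the CC chemokines Ccl2 and Ccl7, the CXC chemokines Cxcl1, Cxcl10, Cxcl12, Cxcl14 and Cxcl16, the CX3C chemokine Cx3cl1, and the cytokines Csf1 and Il34. They were taken by name from the RNA-seq count table, with the transcript row of highest mean count standing for each gene, and they are 10 of the 20458 genes that could be paired with a symbol. The libraries were total RNA of whole C57BL/6 mouse kidney, 3 per group, at postnatal day 1 (P1), day 3 (P3) and day 7 (P7). In the Pkd1 model, Pkd1f/f:HoxB7-Cre kidneys (KO) were compared with Pkd1f/f kidneys (WT), and in the Pkd2 model Pkd2f/f:HoxB7-Cre kidneys (KO) with Pkd2f/f kidneys (WT), so every animal carried floxed alleles and only the KO groups carried Cre. HoxB7-Cre drives deletion in the collecting duct, while the RNA came from all cells of the kidney. The labels number the libraries of a group but do not say whether each is a separate animal, and p-values therefore measure the spread between these libraries.

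Chemokines are small secreted or membrane-tethered proteins that bind receptors on leukocytes and direct their migration. The family is named after its first cysteines, which are adjacent in CC chemokines, separated by 1 residue in CXC chemokines and by 3 residues in CX3C chemokines. Ccl2 and Ccl7 recruit monocytes, Cxcl1 recruits neutrophils, Cxcl10 is an interferon target that attracts T cells, and Cxcl12 is made by stromal and endothelial cells and holds haematopoietic progenitors in place. Csf1 and Il34 share the receptor Csf1r, on which resident macrophages of the kidney depend, and macrophages are a known component of the tissue around renal cysts.

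The coding stretches that hold the first cysteine motif are shown because they define the 3 classes by which the genes are ordered below. They were read 5′ to 3′ from GENCODE transcripts on GRCm38, and the cysteine codons are in capitals. All coordinates here and below are on GRCm38 (mm10), the build of the count table.
Ccl2: ccactcaccTGCTGCtactcattcacc
Ccl7: gcatccacaTGCTGCtatgtcaagaaa
Cxcl1: gagctgcgcTGTcagTGCctgcagacc
Cxcl10: acggtccgcTGCaacTGCatccatatc
Cxcl12: agctaccgaTGCcccTGCcggttcttc
Cxcl14: gggtccaagTGTaagTGTtcccggaag
Cxcl16: gctggaagtTGTtctTGTgatcgtacc
Cx3cl1: acgaaaTGCgaaatcatgTGCgacaag
The 2 cysteine codons of Ccl2 (chr11:82036497-82036523, plus strand) and of Ccl7 (chr11:82046529-82046555, plus strand) were adjacent and lay in exon 2 of 3 of each gene. In Cxcl1 (chr5:90891487-90891513, plus strand), Cxcl10 (chr5:92348172-92348198, minus strand), Cxcl12 (chr6:117171499-117171525, plus strand) and Cxcl16 (chr11:70459118-70459144, minus strand) 1 codon separated them, again within exon 2. The Cxcl14 stretch (chr13:56295906-56296110, minus strand) crossed the junction of exons 1 and 2. The stretch of Cx3cl1 (chr8:94778045-94778071, plus strand) lay in exon 2 of 3. Cx3cl1 and Cxcl16 had the longest coding sequences of the 8, with 395 and 246 codons against 89 to 148 in the other 6, and both proteins are anchored in the membrane by a mucin stalk and released by proteases.

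At P7, Ccl2, Ccl7, Cxcl16 and Cx3cl1 were higher in KO than in WT kidneys of both models. Cxcl10 was also higher and Cxcl12 lower in the Pkd2 model. The Cxcl10 call was lost when any 1 library was left out, and another Cxcl12 row was lower in the Pkd1 model. For neither gene was a different KO effect between the models called. Transcripts were tested with the quasi-likelihood F test of edgeR and the p-values adjusted by Benjamini-Hochberg over the whole table. By this test 4 of the 8 chemokines that could be tested passed an adjusted p of 0.05 in the Pkd1 model, against 13.5% of 12527 transcripts overall. All 4 were higher in KO, a direction taken by 6.55% of transcripts, and none was lower, a direction taken by 6.93%. In the Pkd2 model 6 of the 8 passed, against 14.1% of 12633 transcripts, with 5 higher (8.13% overall) and 1 lower (5.93% overall). Every KO library lay above every WT library for 4 chemokines in the Pkd1 model (20.0% of transcripts) and for 5 in the Pkd2 model (19.8%). Every KO library lay below every WT library for Cxcl12 in each model (18.7% and 15.5% of transcripts). The 8 chemokines had a median log2 fold change at P7 of 0.90 (Pkd1) and 1.00 (Pkd2), where the median of all transcripts was 0.01 in both.

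**Figure D1:**
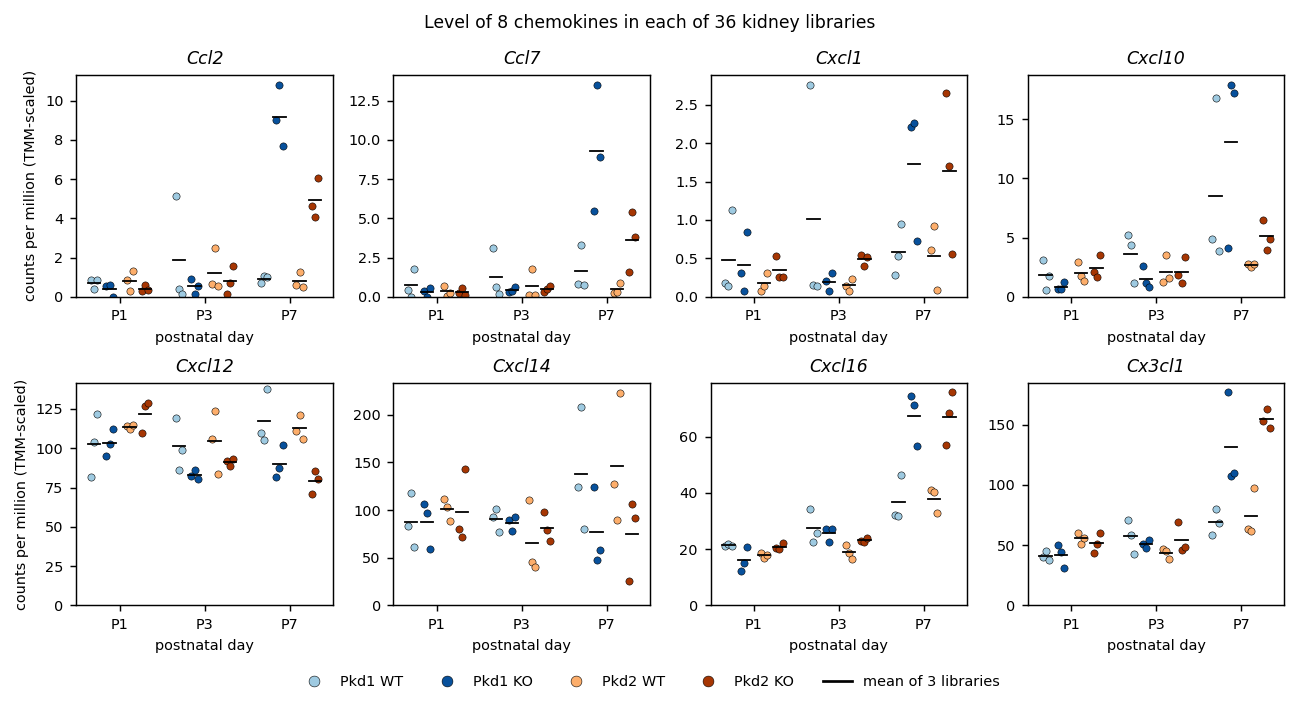
Level of each chemokine in each library, in CPM (a transcript's counts relative to the library total, after scaling by trimmed mean of M-values, TMM, within a model), with postnatal day on the horizontal axis, 1 point per library and a bar at the mean of 3 libraries. At P7 the KO libraries of both models lie above the WT libraries for Ccl2, Ccl7, Cxcl16 and Cx3cl1, and at P3 single WT libraries stand high for Ccl2, Ccl7 and Cxcl1.

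Before P7 no chemokine passed the test. At P1 the edgeR test called 0 of 8 in the Pkd1 model (0% of all transcripts, with 163 at an unadjusted p under 0.05) and 0 of 8 in the Pkd2 model (0%, with 715), and none of the 8 was under 0.05 without adjustment in either model. At P3 it called 0 of 8 in the Pkd1 model (0.0160% of all transcripts, with 1808 unadjusted) and 0 of 8 in the Pkd2 model (0%, with 558). One chemokine in each model was under 0.05 there before adjustment, which were Cxcl12 and Cxcl1. DESeq2 called none of the 8 at these days either. In the Pkd1 model it called 0.016% of all transcripts at P1 and 2.34% at P3.

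Several libraries stood apart from their groups. Over the 36 libraries the total count ran from 7179152 to 15850818, with a median of 13143336. The summed level of 4 adrenal cortex markers (Star, Cyp11a1, Cyp21a1, Cyp11b1) was 8.23 to 34.3 CPM in 33 libraries and reached 1390 in Pkd1 P7 KO1, 1270 in Pkd2 P7 KO3 and 4900 in Pkd2 P3 WT2. Y-linked transcripts were present in all 3 KO and none of the 3 WT libraries of the Pkd1 model at P7, so genotype and sex cannot be told apart in that comparison. For the Pkd2 kidneys of that day they were present in all 3 KO libraries and in 2 of 3 WT libraries. Without Pkd2 P7 WT3, the library that lacked them, 5 of the 6 chemokines were still called (Ccl2 2.38, Ccl7 3.77, Cx3cl1 1.31, Cxcl16 0.73 and Cxcl12 -0.55 on the log2 scale), and Cxcl10 was not (0.98, edgeR adjusted p = 0.056). Without the adrenal-rich Pkd1 P7 KO1, Ccl2 alone of the 4 was still called, with 3.68% of all transcripts. A fit of the 18 Pkd1 libraries with Y-linked presence as a covariate called none of the 4 at P7, with 6 transcripts called in all. Only the Pkd1 WT group at P1 held libraries with and without Y-linked transcripts, so that fit had little information. The deleted gene gave little check of the genotype in whole kidney: the Pkd1 transcript was at 261 ± 28.7 CPM in KO and 241 ± 11.4 in WT kidneys of its model at P7 (SD, n = 3), and the Pkd2 transcript fell by 0.29 on the log2 scale in its model (SE 0.05, edgeR adjusted p = 0.0121). Of 5 collecting duct markers tested at P7, 3 were lower and 1 higher in Pkd1 KO, and 2 were lower in Pkd2 KO. The water channels Aqp2 (-2.26 and -2.37 on the log2 scale) and Aqp3 (-1.18 and -0.86) fell in both models, and Hoxb7, whose promoter drives the Cre, rose in Pkd1 KO (0.53) and differed by -0.03 in the Pkd2 model without passing. Hoxb7 was named after its values were seen.

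Ccl2 (chr11:82035577-82037452), a monocyte attractant and ligand of Ccr2, was the chemokine with the smallest adjusted p in both models at P7. Its counts were 10, 16 and 14 in the Pkd1 WT libraries and 114, 138 and 106 in the KO libraries, or 0.692, 1.07 and 1.02 against 9.01, 10.8 and 7.70 CPM. The groups were far apart, and the fitted change was 9.78-fold (log2 3.29, SE 0.32, edgeR adjusted p = 0.00249). The Pkd2 counts were 8, 18 and 6 in WT and 59, 53 and 77 in KO, a 6.13-fold change (log2 2.61, SE 0.38, edgeR adjusted p = 0.00526). Leaving out any 1 of the 6 libraries kept Ccl2 past the threshold in both models, with log2 changes of 3.12 to 3.41 and of 2.38 to 3.15. Without the adrenal-rich KO library the changes were 3.3 (Pkd1 KO1 left out, adjusted p = 0.0109) and 2.44 (Pkd2 KO3 left out, adjusted p = 0.0221).

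At P1 and P3 Ccl2 was close to the counting floor in most libraries. Its counts at P1 ran from 0 to 10 in the Pkd1 model and from 4 to 17 in the Pkd2 model, where a count of 0 allows up to 3. At P3 the Pkd1 WT libraries had 63, 5 and 2 counts and the KO libraries 13, 2 and 7. The first WT library therefore set the fitted change, which was -1.78 with it (SE 1.15, edgeR adjusted p = 0.529) and 1.02 without it (SE 0.88, adjusted p = 0.665). Pkd2 WT2, the library with the most adrenal marker counts, was the high one at P3 in its model, with 32 Ccl2 counts against 10 and 7 in the other WT and 2 to 21 in the KO libraries. Leaving it out moved the Pkd2 change from -0.58 to 0.41.

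Ccl7 (chr11:82045712-82047525), which lies next to Ccl2 and binds Ccr1, Ccr2 and Ccr3, changed in the same direction with more spread. At P7 the Pkd1 WT libraries had 12, 49 and 10 counts and the KO libraries 69, 173 and 123, a 5.71-fold change (log2 2.51, SE 0.61, edgeR adjusted p = 0.0345). The Pkd2 WT libraries had 3, 4 and 11 counts and the KO libraries 20, 70 and 48, a 7.68-fold change (log2 2.94, SE 0.63, edgeR adjusted p = 0.0204). No KO count overlapped a WT count in either model, although Pkd1 WT2 stood well above the other WT libraries. The call was lost without WT1, KO1, KO2 or KO3 in the Pkd1 model and without WT1, WT2, KO2 or KO3 in the Pkd2 model, while the log2 change stayed between 2.15 and 3.56 and between 2.52 and 3.77. Without the adrenal-rich libraries it was 2.78 in the Pkd1 model (adjusted p = 0.0532) and 2.91 in the Pkd2 model (adjusted p = 0.0604).

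The same WT libraries that were high for Ccl2 at P3 were high for Ccl7. Pkd1 WT1 had 38 counts beside 8 and 2, and Pkd2 WT2 had 23 beside 2 and 1, against 4 to 9 counts in the 6 KO libraries of that day. Over the 12 groups, Ccl2 and Ccl7 peaked in the same library in 6, Ccl2 and Cxcl10 in 7, and Ccl7 and Cxcl10 in 8. Over all pairs of the chemokines this number ran from 1 to 11, and it was not tested.

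Cxcl1 (chr5:90891245-90893121), a neutrophil attractant and ligand of Cxcr2, did not pass the test on any day. At P7 its counts were 4, 8 and 13 in Pkd1 WT and 28, 29 and 10 in Pkd1 KO, with a log2 difference of 1.55 (SE 0.62, edgeR adjusted p = 0.122). The Pkd2 counts were 8, 13 and 1 in WT and 34, 22 and 7 in KO, with a log2 difference of 1.57 (SE 0.75, edgeR adjusted p = 0.206). In each model 2 KO libraries were above all WT libraries and the third KO library lay among them. The highest Cxcl1 count of all 36 libraries, 34, occurred in Pkd2 P7 KO1 and in Pkd1 P3 WT1.

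Cxcl10 (chr5:92346638-92348889) varied more among the Pkd1 libraries than between the groups. Its Pkd1 counts at P7 were 70, 252 and 53 in WT and 52, 229 and 237 in KO, with overlapping groups and a log2 difference of 0.62 (SE 0.66, edgeR adjusted p = 0.542). In the Pkd2 model the counts were 36, 35 and 34 in WT and 83, 51 and 62 in KO, a 1.92-fold change (log2 0.94, SE 0.25, edgeR adjusted p = 0.0422). That call was lost in each of the 6 fits without 1 library, at adjusted p of 0.0523 to 0.122. The summed level of 17 interferon targets was 654, 1300 and 228 CPM in the Pkd1 WT libraries and 258, 717 and 676 in the Pkd1 KO libraries, where WT3 and KO1, with the lowest Cxcl10 levels (3.87 and 4.11 CPM), had the lowest sums. It was 271, 228 and 353 in the Pkd2 WT libraries and 189, 230 and 264 in the Pkd2 KO libraries, where KO1, with the highest Cxcl10 level (6.5 CPM), had the lowest sum. The part of interferon targets in the Cxcl10 result was not tested.

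Cxcl12 (chr6:117168535-117181368), the ligand of Cxcr4 and Ackr3, was lower in KO of the Pkd2 model. Its row was at 111, 121 and 106 CPM in Pkd2 WT and at 70.8, 85.6 and 80.4 in Pkd2 KO at P7, a 1.43-fold decrease (log2 -0.51, SE 0.09, edgeR adjusted p = 0.0092). The groups did not overlap and the call was kept in all 6 fits without 1 library. Among Pkd1 kidneys the levels were 110, 105 and 138 in WT and 81.7, 87.2 and 102 in KO, and the log2 difference of -0.38 (SE 0.14, edgeR adjusted p = 0.107) did not pass. Endothelial markers moved in the same direction: the summed level of 5 was 692 to 737 CPM in Pkd2 WT and 516 to 599 in Pkd2 KO, and 604 to 703 in Pkd1 WT and 472 to 573 in Pkd1 KO. Of 3 tested, 2 were lower in Pkd2 KO, Kdr (log2 -0.44, SE 0.06, edgeR adjusted p = 0.00412) and Tie1 (log2 -0.42, SE 0.07, edgeR adjusted p = 0.00752), and none passed in Pkd1 KO. Pecam1 and Emcn had at most 1 count in any library and were not tested. Each of them has several transcript rows, so these counts cannot be read as absence, and the sum rests on the 3 tested. The summed level of 5 stromal markers was 5350 to 5540 CPM in Pkd2 WT and 5930 to 7660 in Pkd2 KO. It was 4690 to 6420 in Pkd1 WT and 4590 to 5780 in Pkd1 KO. Most of this sum came from the collagen genes Col1a1 and Col3a1, with mean counts of 24529 and 41309. The mean count of 105 for Dcn is no measure of its level, since its row has 181 of its 1758 exon bases to itself. The same limit holds for Pdgfra, with 166 of 6549, and Pdgfrb, with 2 transcript rows, had no counts. Of 3 stromal markers tested, 1 was higher and 1 lower in Pkd2 KO, and 1 was lower in Pkd1 KO. The part of endothelial and stromal cells in the Cxcl12 result was not tested.

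Cxcl12 has 3 transcript rows, and the one described above, NM_021704, has 1530 of its 1878 exon bases to itself. A second row, NM_001012477, with 2498 of its 5627 exon bases to itself, was added after the values were seen. At P7 it was at 67.7, 57.4 and 53.8 CPM in Pkd1 WT and at 12.1, 19.7 and 29.9 in Pkd1 KO, a 2.90-fold decrease (log2 -1.54, SE 0.29, edgeR adjusted p = 0.0174). It was at 70.7, 70.3 and 46.3 in Pkd2 WT and at 52.3, 51.9 and 40.0 in Pkd2 KO, and that log2 difference of -0.38 (SE 0.18, edgeR adjusted p = 0.198) did not pass. The Pkd1 call was lost without WT1 (-1.43, adjusted p = 0.0741) or KO2 (-1.5, adjusted p = 0.0801), and the Pkd2 row was called without WT3 (-0.55, adjusted p = 0.0184). The difference between the models was -1.15 on the log2 scale (SE 0.37, edgeR adjusted p = 0.176). With the rows of the gene summed, Cxcl12 passed in both models, with log2 changes of -0.69 in the Pkd1 model (adjusted p = 0.0224) and -0.48 in the Pkd2 model (adjusted p = 0.0174). The third row, NM_013655, has no bases of its own and no counts.

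**Figure D2:**
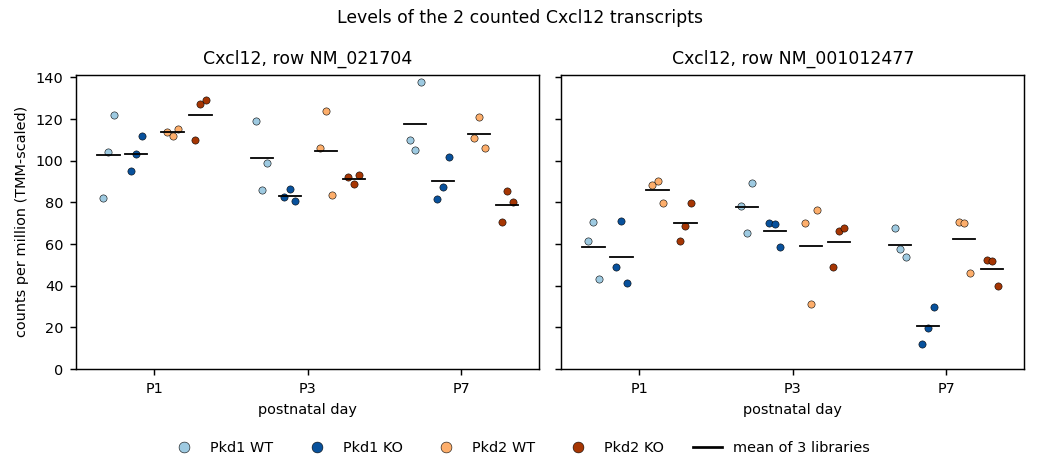
CPM of the 2 counted Cxcl12 transcript rows in each library by postnatal day, with a bar at the mean of 3 libraries. At P7 the NM_001012477 row lies between 12.1 and 29.9 in the Pkd1 KO libraries and between 53.8 and 67.7 in the Pkd1 WT libraries.

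Cxcl14 (chr13:56288643-56296811), a chemokine of epithelia, had the widest spread among replicates of the abundant members. At P7 it was at 124, 208 and 79.8 CPM in Pkd1 WT and at 124, 48.0 and 58.3 in Pkd1 KO. For Pkd2 it was at 127, 89.6 and 223 in WT and at 26.1, 106 and 91.7 in KO. The groups overlapped in both models, and the log2 differences of -0.84 (SE 0.42, edgeR adjusted p = 0.197) and -0.97 (SE 0.49, edgeR adjusted p = 0.234) did not pass. The library of a group in which Cxcl14 was highest was also the one in which Cx3cl1 was highest in 11 of the 12 groups. This was the highest count of all pairs of the chemokines, which ran from 1 to 11, and it was not tested.

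Cxcl16 (chr11:70454389-70459984), a membrane-bound ligand of Cxcr6, rose with KO at P7 in both models. It was at 32.0, 31.8 and 46.2 CPM in Pkd1 WT and at 74.4, 71.1 and 56.7 in Pkd1 KO, a 1.84-fold change (log2 0.88, SE 0.18, edgeR adjusted p = 0.0228). The Pkd2 levels were 40.9, 40.3 and 32.7 in WT and 57.1, 68.4 and 75.8 in KO, a 1.77-fold change (log2 0.82, SE 0.13, edgeR adjusted p = 0.00677). WT and KO did not overlap in either model. The Pkd1 call was kept in 3 of 6 fits without 1 library, with log2 changes of 0.78 to 1.08, and was lost without KO1 (0.80, adjusted p = 0.0747), KO2 (0.84, adjusted p = 0.0933) or WT1 (0.79, adjusted p = 0.0986). The Pkd2 call was kept in all 6, with 0.73 to 0.93.

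Cx3cl1 (chr8:94772180-94782427), also called fractalkine, the membrane-bound ligand of Cx3cr1, was the most abundant chemokine that rose. At P7 it was at 58.5, 79.9 and 68.0 CPM in Pkd1 WT and at 177, 107 and 110 in Pkd1 KO, a 1.91-fold change (log2 0.93, SE 0.21, edgeR adjusted p = 0.0304). Pkd2 kidneys had 63.5, 61.4 and 97.2 in WT and 153, 163 and 147 in KO, a 2.09-fold change (log2 1.06, SE 0.16, edgeR adjusted p = 0.00636). All KO libraries were above all WT libraries, and the highest Pkd1 value belonged to the adrenal-rich KO1. Without it the Pkd1 change was 0.66 (SE 0.16, adjusted p = 0.064), and the call was also lost without KO2 (1.06, adjusted p = 0.0609) or WT1 (0.83, adjusted p = 0.116). The Pkd2 call was kept in all 6 fits, with log2 changes of 0.94 to 1.31.

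**Figure D3:**
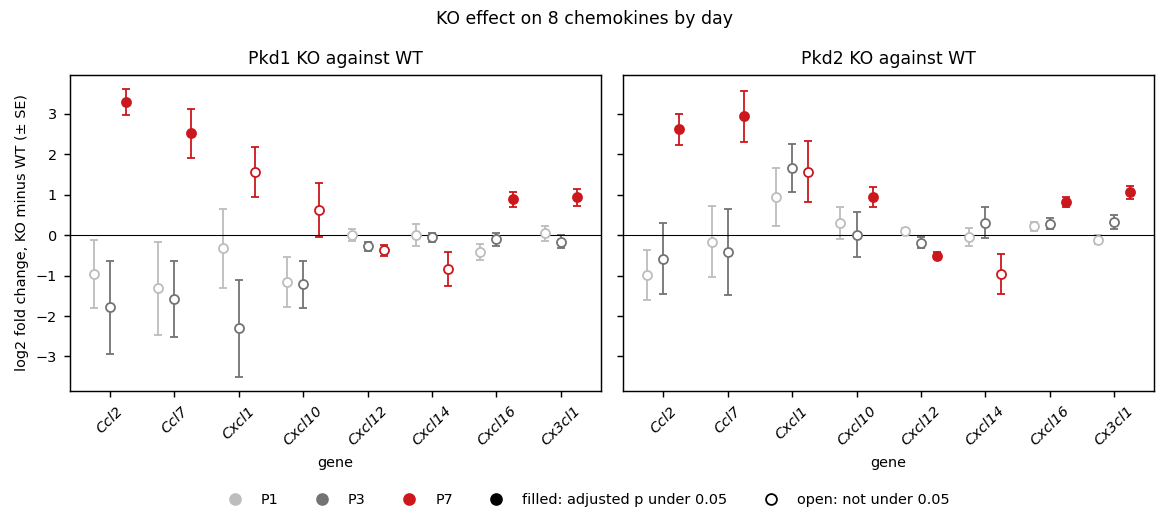
Log2 fold change of KO against WT for the 8 chemokines at P1, P3 and P7 in each model, with bars of 1 SE and filled points where the edgeR adjusted p was under 0.05. The filled points are all at P7, 4 for Pkd1 and 6 for Pkd2, and Cxcl12 is the only one of them under 0.

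The change of the KO effect between days was tested over the 18 libraries of a model. In the Pkd1 model 1 of 8 chemokines passed for P7 against P1 (7.61% of all transcripts): the effect on Cxcl16 was 1.29 higher at P7 on the log2 scale (SE 0.28, edgeR adjusted p = 0.0143). With Y-linked presence as a covariate that difference was 1.33 (SE 0.59, adjusted p = 0.822). Y-linked transcripts were present in 2 of 3 WT and 0 of 3 KO libraries at P1 and in 0 of 3 WT and 3 of 3 KO libraries at P7 in this model. For Pkd2, 1 of 8 passed (1.30% of all transcripts): the effect on Cx3cl1 was 1.17 higher at P7 (SE 0.25, edgeR adjusted p = 0.0283), a call kept in 11 of 18 fits without 1 library (adjusted p up to 0.0799). The larger differences of Ccl2, 4.26 in the Pkd1 model (SE 1.38, edgeR adjusted p = 0.0669) and 3.61 in the Pkd2 model (SE 1.02, edgeR adjusted p = 0.0987), did not pass. DESeq2 called 4 of 8 in each model here, Ccl2 and Cx3cl1 among them in both. The shares of 7.61% and 1.30% belong to the edgeR test and cannot be set beside these counts. No DESeq2 share over all transcripts is given here for the test of days. The counts of 4 therefore cannot be read as a result about the chemokines. In the KO against WT test of the Pkd1 model at P7, DESeq2 called 23% of all transcripts and edgeR 13.5%. For P3 against P1 the edgeR test called 0 of 8 in the Pkd1 model (0% of transcripts) and 0 of 8 in the Pkd2 model (0%), with none of the 8 under 0.05 before adjustment and none by DESeq2.

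Between the models, the edgeR test called 0 of 8 chemokines for a different KO effect at P7 (0% of 12343 transcripts, of which 2119 were under 0.05 unadjusted). None of the 8 was under 0.05 before adjustment, and DESeq2 called none. The largest of the 8 differences was that of Ccl2, 0.68 higher in the Pkd1 model on the log2 scale (SE 0.49, edgeR adjusted p = 0.502). Those of Cx3cl1 and Cxcl16 were -0.12 (SE 0.30) and 0.06 (SE 0.24). The absolute levels of Ccl2 and Ccl7 in KO were 7.70 to 10.8 and 5.45 to 13.5 CPM in the Pkd1 model, and 4.09 to 6.08 and 1.57 to 5.4 in the Pkd2 model, and the scaling of each model was separate.

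With age alone, in WT kidneys, Cxcl16 rose from P1 to P7 in both models. Its level went from 21.3, 21.7 and 21.3 to 32.0, 31.8 and 46.2 CPM in Pkd1 WT (log2 0.78, SE 0.20, edgeR adjusted p = 0.0217) and from 18.6, 17.0 and 18.1 to 40.9, 40.3 and 32.7 in Pkd2 WT (log2 1.08, SE 0.13, edgeR adjusted p = 0.0017). Cx3cl1 rose in Pkd1 WT (log2 0.76, SE 0.18, edgeR adjusted p = 0.0178), and its difference of 0.41 in Pkd2 WT (SE 0.17, edgeR adjusted p = 0.128) did not pass. These were 2 of 8 in the Pkd1 model (17.8% of all transcripts) and 1 of 8 in the Pkd2 model (19.3%). In the Pkd1 model the WT libraries with Y-linked transcripts were 2 of 3 at P1 and 0 of 3 at P7, and neither call remained without Pkd1 P1 WT1, nor did Cxcl16 without P1 WT2 or P7 WT3, or Cx3cl1 without P1 WT3.

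Per kilobase, the 8 chemokines covered a wide range of levels. CPM values were divided by the exon bases that no other listed row covers. In Pkd2 WT at P7 Cxcl14 was at 80.2 ± 37.8 and Cxcl12 at 73.7 ± 5.14 CPM per kilobase (SD, n = 3), neighbours that did not differ beyond their spread. They were followed by Cx3cl1 at 22.3 ± 6.07 and Cxcl16 at 14.1 ± 1.70. Cxcl10 at 2.42 ± 0.147, Ccl2 at 0.968 ± 0.518, Ccl7 at 0.583 ± 0.460 and Cxcl1 at 0.561 ± 0.443 came last, the last 3 within their spread of each other. In Pkd1 KO at P7 the lowest of the 8 was Cxcl1, at 1.82 ± 0.917, and Cxcl10, Ccl7 and Ccl2 were at 11.9 ± 7.10, 11.6 ± 5.04 and 11.3 ± 1.90, which their spread did not separate.

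**Figure D4:**
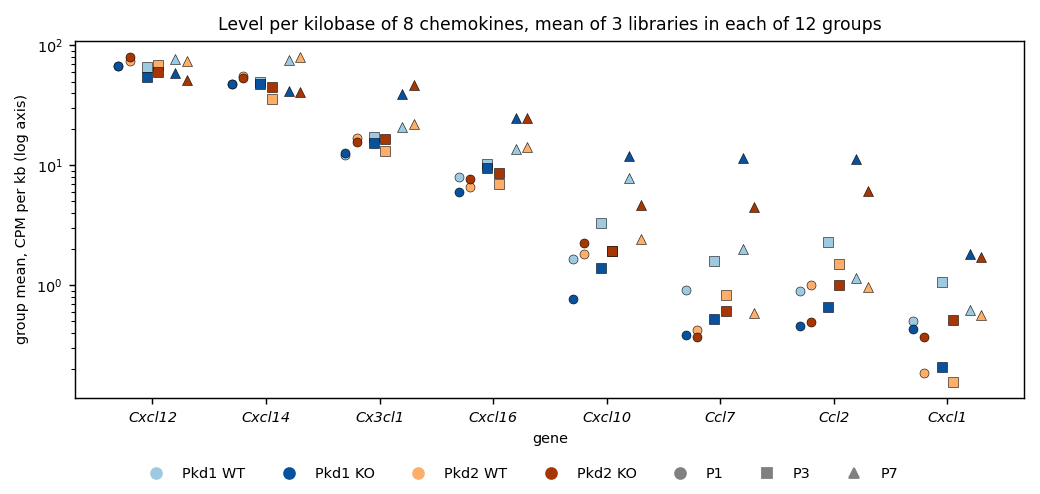
Mean level per kilobase of exon of each chemokine in each of the 12 groups (CPM per kilobase, log axis), with the day as the marker shape and the group as the colour. Cxcl12 and Cxcl14 are the top pair in 11 of the 12 groups, the exception being Pkd2 KO at P7, where Cx3cl1 at 46.6 lies second to Cxcl12 at 51.6, and the P7 KO points of Ccl2 and Ccl7 lie above all other points of those genes.

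Csf1 (chr3:107741048-107760469) and Il34 (chr8:110741829-110805949) could not be assessed as expressed or not. Each has several transcript rows that share nearly all exons, and the best row of Csf1 has 246 of its 2097 exon bases to itself, that of Il34 118 of 1796. Over the table, 88.5% of the rows of genes with several rows had a mean count under 10, against 35.0% of the rows of genes with a single row. The Csf1 row had at most 8 counts in any library and failed the low-count filter. At P7 its counts were 0, 0 and 2 in Pkd1 WT and 5, 8 and 2 in Pkd1 KO, and 0, 0 and 1 in Pkd2 WT and 4, 5 and 1 in Pkd2 KO. A count of 0 allows up to 3, so no fold change is given. The Il34 row had at most 3 counts in any library, with 0, 0 and 0 in Pkd2 WT and 2, 3 and 3 in Pkd2 KO at P7, and it also failed the filter.

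Of 15 receptors and decoy receptors of these ligands, none was lower in KO at P7. Higher were 1 of 10 tested in Pkd1 KO (6.55% of all transcripts) and 5 of 11 in Pkd2 KO (8.13%). The median log2 fold change of those tested was 0.50 and 0.85, beside 0.01 for all transcripts in each model. Cx3cr1 and Csf1r are also among the 12 macrophage markers described below. Cx3cr1, the Cx3cl1 receptor of macrophages, went from 24.4, 27.8 and 19.9 CPM in Pkd1 WT to 34.5, 39.2 and 39.2 in KO (log2 0.65, SE 0.16, edgeR adjusted p = 0.0371) and from 21.3, 23.7 and 25.4 to 40.4, 41.0 and 45.4 in the Pkd2 model (log2 0.85, SE 0.10, edgeR adjusted p = 0.00197). Ccr2, the Ccl2 receptor, rose in Pkd2 KO (log2 1.5, SE 0.32, edgeR adjusted p = 0.0199) and differed by 0.76 in the Pkd1 model (SE 0.48, edgeR adjusted p = 0.298).

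Ccr1, a further receptor of CC chemokines, rose in Pkd2 KO by 1.21 on the log2 scale (SE 0.23, edgeR adjusted p = 0.0141) and differed by 1.52 in the Pkd1 model (SE 0.48, edgeR adjusted p = 0.0696). Csf1r, the receptor of Csf1 and Il34, rose by 0.35 in Pkd2 KO (SE 0.08, edgeR adjusted p = 0.0216) and differed by 0.13 in the Pkd1 model (SE 0.12, edgeR adjusted p = 0.473). Cxcr4, the Cxcl12 receptor, was at 18.1 ± 9.37 in Pkd1 KO and 18.9 ± 4.66 CPM in Pkd1 WT, with a log2 difference of -0.06 (SE 0.38). Cxcr3 and Cxcr6, the receptors of Cxcl10 and Cxcl16, reached 12 and 25 counts at most and were not tested in either model.

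Macrophage markers moved with the chemokines. The summed level of 12 macrophage markers at P7 was 311 to 395 CPM in Pkd1 WT and 535 to 620 in Pkd1 KO, and 306 to 362 in Pkd2 WT and 526 to 688 in Pkd2 KO. At P1 and P3 it was 179 to 310 in all libraries but Pkd2 P3 WT2, which had 474. Of 11 markers tested, Cx3cr1 and Csf1r among them, none was lower in KO at P7. Higher were 5 in Pkd1 KO (6.55% of all transcripts) and 9 in Pkd2 KO (8.13%). C1qa, a complement component made by macrophages, rose by 1.29 and 1.21 on the log2 scale (edgeR adjusted p = 0.00236 and 0.000632), whereas Adgre1, which encodes F4/80, differed by -0.08 (SE 0.19) and 0.59 (SE 0.16) and did not pass. Lyz2 and Mrc1, abundant in macrophages, rose in the Pkd2 model by 1.10 and 0.98 (edgeR adjusted p = 0.0199 and 0.0044) and differed by 0.56 and 0.64 in the Pkd1 model without passing. Itgam had 0 counts throughout, but its best row has only 33 of 4682 exon bases to itself, so its level could not be assessed. C1qa, Adgre1 and Itgam were chosen after their values were seen. In bulk RNA, more cells of a type and more RNA per cell cannot be told apart, and the part of macrophage number in the chemokine results was not tested. Of the neutrophil, T and NK cell, and B cell markers tested, none passed at P7 in either model. Those tested in the Pkd1 and Pkd2 models were 3 and 4 of 7 neutrophil markers and 3 and 4 of 4 B cell markers. Only 1 of 6 T and NK cell markers was tested in each. The summed level of 7 neutrophil markers was 1.94 to 3.67 CPM in Pkd1 WT and 6.64 to 19.8 in Pkd1 KO. It was 2.43 to 3.10 in Pkd2 WT and 2.12 to 5.29 in Pkd2 KO. S100a9, Csf3r and Cd8a had 0 counts. Each of these 3 genes has 2 transcript rows, and their zeros cannot be read as absence.

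**Figure D5:**
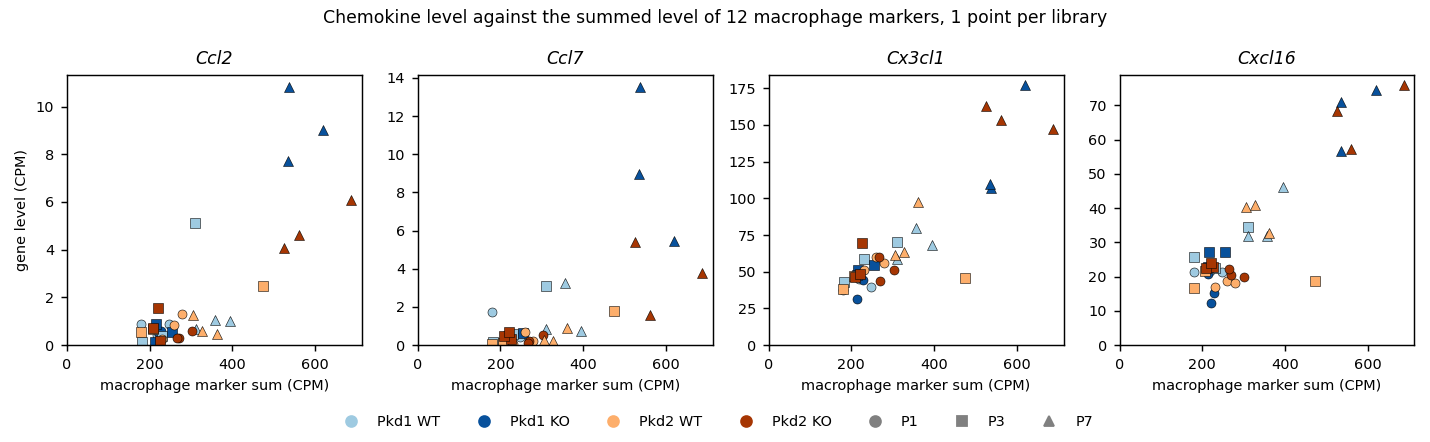
Level of Ccl2, Ccl7, Cx3cl1 and Cxcl16 (CPM) against the summed level of 12 macrophage markers (CPM), 1 point per library, with colour for model and genotype and shape for day. The P7 KO libraries lie at marker sums of 526 to 688 and hold the highest value of each gene, and the P3 WT library at 474 has 45.5 of Cx3cl1 and 18.8 of Cxcl16.

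The chemokines did not move together in Pkd2 P3 WT2. Its macrophage marker sum of 474 was the highest outside P7 KO, and its Ccl2, at 2.46, and Ccl7, at 1.77 CPM, were above the other WT libraries of its group. Its Cx3cl1, at 45.5, and Cxcl16, at 18.8, lay between those of the other WT libraries. Cxcl10, at 3.53, and Cxcl12, at 124, were the highest of its group, Cxcl1, at 0.0768, was the lowest, and Cxcl14, at 45.5, lay between. The adrenal markers of this library were high as well, and their part in its values was not tested.

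Among 29 other chemokines, 28 had a row, and none was lower in KO at P7. Higher were 2 of 13 tested in Pkd1 KO (6.55% of all transcripts) and 4 of 12 in Pkd2 KO (8.13%). Pf4, a CXC chemokine of platelets and some macrophages, had 114, 80 and 130 counts in Pkd1 WT and 382, 334 and 363 in KO (log2 1.86, SE 0.23, edgeR adjusted p = 0.00691), and rose by 1.48 in the Pkd2 model (SE 0.16, edgeR adjusted p = 0.0015). Ccl9, a macrophage CC chemokine, rose by 2.27 (SE 0.37, edgeR adjusted p = 0.0124) and 1.94 (SE 0.42, edgeR adjusted p = 0.0211). Ccl6 rose in the Pkd2 model by 1.61 (edgeR adjusted p = 0.0492). Ccl24 had 2, 2 and 1 counts in Pkd2 WT and 18, 4 and 12 in Pkd2 KO (edgeR adjusted p = 0.0433). Ccl12, which is in the same gene cluster as Ccl2, differed by 1.60 (SE 0.57, edgeR adjusted p = 0.091) and 1.57 (SE 0.45, edgeR adjusted p = 0.0547), neither of which passed.

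In a list of 22 NF-kB components, targets and inflammatory cytokines, none was lower in KO at P7. Higher were 6 of 14 tested in Pkd1 KO (6.55% of all transcripts) and 7 of 14 in Pkd2 KO (8.13%). Bcl3, a co-regulator of NF-kB, rose in both (log2 1.55, SE 0.35, edgeR adjusted p = 0.0278, and 1.43, SE 0.17, adjusted p = 0.00254). Icam1, a leukocyte adhesion molecule, rose in both (log2 0.65, SE 0.16, edgeR adjusted p = 0.037, and 0.99, SE 0.07, adjusted p = 0.000377). Il6 had 1, 2 and 0 counts in Pkd1 WT and 23, 69 and 12 in Pkd1 KO (edgeR adjusted p = 0.0185), and 3, 3 and 0 against 21, 26 and 20 in the Pkd2 model (adjusted p = 0.0114). The NF-kB subunit Rela rose by 0.53 and 0.26 (edgeR adjusted p = 0.0344 and 0.0427), while Nfkb1 differed by -0.04 and 0.07 and did not pass. Tnfrsf12a, the receptor of Tweak, rose in the Pkd1 model (log2 2.22, SE 0.58, edgeR adjusted p = 0.0411), and Tnfrsf1b, a TNF receptor, in the Pkd2 model (log2 0.84, SE 0.17, edgeR adjusted p = 0.0181). Tnf had at most 1 count in any library, on a row with 177 of 1639 exon bases to itself, so that, as for Csf1 and Il34, its level could not be assessed. Nfkb1, Tnf and Tnfrsf12a, like Ccl12 above, were chosen after their values were seen.

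Of the interferon targets, a list that Cxcl10 belongs to by regulation, none of 13 tested passed at P7 in the Pkd1 model by edgeR (13.5% of all transcripts), and 1 of 12 passed in the Pkd2 model (14.1% of all transcripts), Rsad2, an antiviral enzyme, which fell by 1.04 on the log2 scale (SE 0.17, edgeR adjusted p = 0.00798). Stat2, a transducer of interferon signals, differed by -0.15 (SE 0.48) and 0.03 (SE 0.09). Of the 5 tested proteases that cleave chemokines, none passed in the Pkd1 model (13.5% of all transcripts) and 1 passed in the Pkd2 model (14.1%). That was Dpp4, which trims Cxcl10 and Cxcl12 and fell by 0.51 (SE 0.09, edgeR adjusted p = 0.0104). Adam10, which sheds Cx3cl1 and Cxcl16, was at 221 ± 7.90 in KO and 245 ± 35.7 CPM in WT of the Pkd1 model (log2 -0.15, SE 0.13, edgeR adjusted p = 0.432) and differed by -0.13 in the Pkd2 model (SE 0.10). Mmp2, a gelatinase that cleaves Cxcl12, differed by -0.16 (SE 0.11) and 0.11 (SE 0.06) and did not pass. Among other colony stimulating and haematopoietic factors, 1 of 6 tested passed in the Pkd1 model (13.5% of all transcripts) and 1 of 5 in the Pkd2 model (14.1%). Mif rose in the Pkd1 model (log2 0.53, SE 0.13, edgeR adjusted p = 0.0321). Kitl, the ligand of Kit, fell by 0.38 in the Pkd2 model (edgeR adjusted p = 0.0286).

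Transcripts whose level followed a chemokine closely over the 18 libraries of each model are given as a description, since all libraries share the day and genotype groups. For Cx3cl1 these included Bgn and Rasl11b, with Pearson r of 0.92 and 0.89 over Pkd1 libraries and 0.93 and 0.97 over Pkd2 libraries. For Cxcl16 they were Igfbp3, Adgrg3 and Pamr1, with 0.93, 0.96 and 0.92 and with 0.95, 0.92 and 0.96. Bgn encodes the matrix proteoglycan biglycan and Igfbp3 an insulin-like growth factor binding protein. Cxcl12 was followed less closely, by Glul and Pdhb among others (0.69 and 0.68, and 0.74 and 0.79), and Cxcl14 by Bst1, Slc5a3 and Ehd4 (0.82, 0.81 and 0.86, and 0.88, 0.83 and 0.81).

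RefSeq promoter windows, 250 bases before to 50 after a start site on GRCm38.p6, were at hand for 6 of the 10 genes: Cx3cl1, Cxcl1, Cxcl10, Cxcl12, Cxcl14 and Csf1. Those of Cxcl1, Cxcl10 and Cx3cl1 are shown up to the start site because they hold most of the matches, with matched letters in capitals.
Cxcl1: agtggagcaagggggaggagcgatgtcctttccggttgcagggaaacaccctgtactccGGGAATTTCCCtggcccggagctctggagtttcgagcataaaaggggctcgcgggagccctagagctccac
Cxcl10: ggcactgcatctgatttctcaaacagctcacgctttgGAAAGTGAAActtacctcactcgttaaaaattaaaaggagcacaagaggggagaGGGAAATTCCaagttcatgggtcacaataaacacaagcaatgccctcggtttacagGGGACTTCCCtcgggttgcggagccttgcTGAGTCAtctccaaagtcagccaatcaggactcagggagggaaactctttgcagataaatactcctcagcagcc
Cx3cl1: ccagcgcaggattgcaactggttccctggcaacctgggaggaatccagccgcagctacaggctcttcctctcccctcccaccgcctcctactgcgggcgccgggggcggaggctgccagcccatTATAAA
The stretches are chr5:90891115-90891244 (plus strand), chr5:92348890-92349139 (minus strand) and chr8:94772050-94772179 (plus strand). Both strands were searched for the NF-kB consensus site, the AP-1 site TGANTCA, the interferon response element (GAAA, any 2 bases, GAAA) and the TATA box TATAAA. Cxcl10 held 2 NF-kB matches, at -159 and -103 from the start site, an interferon response element at -213 and an AP-1 match at -74. Cxcl1 held overlapping NF-kB matches on both strands at -71 and -70. Cx3cl1 held the letters of the TATA box at -6 to -1, directly before the start site. The function of these matches was not tested. Csf1 held an NF-kB match at -154 and Cxcl14 an interferon response element at -172, and no letters of the 4 motifs were in the Cxcl12 window. Of 32851 mouse promoter windows of the same length, 4.51% held the NF-kB consensus, 7.81% the AP-1 site, 3.44% the interferon response element and 13.6% the TATA box. At P7, with the values above, Cx3cl1 rose in both models, and Cxcl10 in the Pkd2 model by a call lost in each fit without 1 library. Cxcl1 and Cxcl14 did not pass, and Csf1 could not be assessed. Cxcl12, with no match, was lower in the Pkd2 model. The part of the motifs in these results was not tested.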

How the data were processed

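Whole-kidney RNA-seq libraries were analysed, 36 in 12 groups of 3. Per the labels and the study's methods, the authors aligned reads to mm10 with TopHat2 2.1.0 after CASAVA 1.8.2 and deposited raw counts per RefSeq transcript made with HTSeq under its default options. Of 29996 rows, 28978 were paired with a symbol through RefSeq (GRCm38.p6). Rows of genes with several isoform rows held few counts, which limits Csf1 and Il34.

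A transcript entered a model's fits if 3 or more of that model's 18 libraries held 10 or more of its counts, and TMM factors scaled the libraries. KO and WT were compared at each day over 6 libraries with the quasi-likelihood F test of edgeR 4.0.16 in R 4.3.3, with Benjamini-Hochberg adjustment at 0.05; day effects used 18 libraries, model effects 12 and the WT course 9. Standard errors were derived from the F statistic. The fits were tested on simulated counts. Alternatives were DESeq2 1.42.0, RLE factors, no low-count filter, the replicate block, all 18 libraries in one fit, a Y-linked covariate, summed rows and each library left out. Levels are CPM with the TMM factors of a model, and the floor of 3 counts covers counting error only.

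Same-numbered KO and WT libraries deviated together in the Pkd1 model at P1 (r = 0.390, 0.259 and 0.579), where the numbers were taken to pair them; the block called no chemokine there. The genes named were all 10 members, their receptors, and up to 4 genes per list with the smallest adjusted p at P7, the 2 of highest mean count where fewer than 2 passed, and up to 3 markers per cell type by mean count. Some genes that this rule names are not reported here. The members and lists were chosen with earlier results of these data known.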

Additional observations from a re-analysis of the deposited data

Results flagged for a closer look

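The KO effect on 2 chemokines passed the test of a difference between days. In the Pkd1 model the effect on Cxcl16 was 1.29 higher at P7 than at P1 on the log2 scale (edgeR adjusted p = 0.0143), a call lost with Y-linked presence as a covariate (1.33, adjusted p = 0.822). For Pkd2 the effect on Cx3cl1 was 1.17 higher (edgeR adjusted p = 0.0283), a call lost with the replicate block (1.21, adjusted p = 0.0574) and in 7 of 18 fits without 1 library. At P1 the KO effect on Cxcl16 was -0.41 on the log2 scale in the Pkd1 model (SE 0.2) and 0.22 in the Pkd2 model (SE 0.11). Neither passed the edgeR test. The 2 effects at P1 differed by -0.63 on the log2 scale (Pkd1 minus Pkd2), and that difference was not tested.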

How the results depend on the processing

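At P7 the Pkd2 count of 6 called chemokines stayed within 1.5 times under every alternative run, with 4 to 6, and Ccl2, Cx3cl1, Cxcl12 and Cxcl16 were among them in each fit without 1 library. The Pkd1 count of 4 was 2 with the replicate block (Ccl2 and Ccl7, with 730 of all transcripts called against 1688) and ran from 1 to 4 in fits without 1 library. It was 1, Ccl2, without WT1, KO1 or KO2. With Y-linked presence as a covariate over 18 libraries it was 0, with 6 transcripts called in all, and Ccl7 reversed to -4.32 (SE 4.87, adjusted p = 0.724). That covariate was estimated from the Pkd1 WT libraries at P1, the only Pkd1 group to hold both kinds, so the fit had little information.

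For the KO effect at P7 against P1, the Pkd1 count of 1 was 4 with DESeq2, 2 with the block, 0 with the Y-linked covariate and 1 to 2 without 1 library (2 without P3 WT1, P3 WT3 or P7 KO3). The Pkd2 count of 1 was 4 with DESeq2, 0 with the block and 0 to 3 without 1 library (3 without P3 WT2, 2 without P3 WT3 or P7 KO1, 0 without P1 WT2, P1 WT3, P1 KO2, P7 WT1, P7 WT2 or P7 KO2). The Pkd1 WT course of 2 was 0 with the Y-linked covariate and 0 to 3 without 1 library (0 without P1 WT1, 1 without P1 WT2 or P1 WT3, 3 without P7 WT3). The cause of these moves was not tested. DESeq2 called 23% of all transcripts in the Pkd1 KO against WT test at P7, where edgeR called 13.5%. Its share over all transcripts in the test of days is not given here. Its counts of 4 therefore cannot be read as a result about the chemokines.

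Outside Pkd1 P1 the numbers did not pair the libraries: correlations of same-numbered deviations ran from -0.215 to 0.169, and the block changed no other count of calls by over 1.5 times, although the Pkd2 call of Cxcl10 at P7 was lost with it (0.92, adjusted p = 0.0631) and the NM_001012477 row of Cxcl12 was called there (-0.36, adjusted p = 0.0386). Counts under about 10 per library limit Ccl2, Ccl7 and Cxcl1 before P7 and leave Csf1 and Il34 unreadable.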
